A study of Mus musculus with 50 samples.

Results

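The genes described here encode the neurotransmitter receptors of the mouse: the GABA-A, glycine, ionotropic and metabotropic glutamate, nicotinic and muscarinic acetylcholine, serotonin, dopamine and adrenergic receptors. They were taken by gene symbol from the RNA-seq count table of a study of PRC2 in mouse embryonic stem cells (mESCs), and the families were picked with earlier results of these data known. Of 18055 genes in the table, 83 had a symbol of one of these families, and 5 of these name other proteins or a non-coding RNA (*Adrbk1*, *Adrbk2*, *Grid2ip*, *Grin1os*, *Grina*), which left 78 members. Of the 78, 39 carried peaks of both SUZ12, a core PRC2 subunit, and H3K27me3, the mark PRC2 deposits, at their promoters in WT cells. All 78 were described, and the promoter state was treated as a readout rather than as a condition for membership.

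All cells were derivatives of the mESC line E14TG2a, which served as WT, and were cultured on gelatin in serum-containing medium with LIF and the kinase inhibitors known as 2i. *Ezh2* KO cells lacked *Ezh2*, and *Ezh1/2* dKO cells lacked both genes for the PRC2 methyltransferases. Both were clonal lines made with large CRISPR deletions. The *Ezh2* Y726D and *Ezh2* R685C lines carried a point mutation in the catalytic SET domain of EZH2, and the study's methods state that they were made in *Ezh1* KO cells. HA-tagged human EZH1 was expressed in *Ezh1/2* dKO cells (HA-EZH1), and *Ezh1/2* dKO cells without it served as the HA control. RNA-seq comprised 2 libraries for each of 4 lines, WT, *Ezh2* Y726D, *Ezh2* KO and *Ezh1/2* dKO. ChIP-seq and ATAC-seq comprised 1 library for each line and mark, so differences in peaks between lines have no replicate check.

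Ionotropic receptors are ligand-gated channels built from several subunits: GABA-A and glycine receptors pass chloride and usually inhibit a neuron, whereas AMPA, kainate, NMDA and nicotinic receptors pass cations and excite it. Metabotropic glutamate, muscarinic, adrenergic, dopamine and nearly all serotonin receptors act through G proteins. Most of these genes are used chiefly in neurons. In embryonic stem cells PRC2 is known to occupy CpG-rich promoters of developmental genes that are silent or nearly so.

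RNA-seq depth was 3604123 to 5181553 reads on genes per library, and replicates correlated with Pearson's r of 0.953 to 0.978 across genes. *Ezh2* stood at 546 and 598 normalised counts in WT and at no more than 1.78 in *Ezh2* KO and *Ezh1/2* dKO. *Ezh1* stood at 227 and 377 in WT, 372 and 378 in *Ezh2* KO, and 14.01 to 24.1 in *Ezh1/2* dKO and *Ezh2* Y726D. The summed level of 8 embryonic stem cell markers was 13660 to 14926 in WT and 13793 to 13974 in *Ezh2* KO, and lower in both libraries of *Ezh1/2* dKO (11949 and 12838) and of *Ezh2* Y726D (12104 and 12945). Among markers of other cell types, 6 primitive endoderm genes summed to 16.0 and 32.7 in WT, 9.41 and 10.6 in *Ezh2* KO, 110 and 120 in *Ezh1/2* dKO and 35.8 and 42.8 in *Ezh2* Y726D. In *Ezh2* KO, *Gata6*, *Sox17* and *Foxa2* of these were at 0 in both libraries, and in *Ezh2* Y726D *Sox17* and *Foxa2* were.

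The promoters of the receptors with the strongest SUZ12 signal and of those called different in the RNA comparisons ranged from CpG islands to CpG-poor sequence. The 150 bases directly upstream of the most upstream annotated start are given below in the direction of transcription, from the mm9 genome, with each CpG in capitals. The first group holds the members with the highest −log10 p of a WT SUZ12 peak, namely the alpha-1D adrenergic receptor gene *Adra1d* (chr2:131388022-131388171, minus strand), the metabotropic glutamate receptor gene *Grm4* (chr17:27650287-27650436, minus strand) and the alpha-2A adrenergic receptor gene *Adra2a* (chr19:54119522-54119671, plus strand).
Adra1d: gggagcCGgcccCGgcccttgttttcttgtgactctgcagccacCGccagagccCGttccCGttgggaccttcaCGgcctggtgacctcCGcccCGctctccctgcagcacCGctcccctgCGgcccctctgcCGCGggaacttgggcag
Grm4: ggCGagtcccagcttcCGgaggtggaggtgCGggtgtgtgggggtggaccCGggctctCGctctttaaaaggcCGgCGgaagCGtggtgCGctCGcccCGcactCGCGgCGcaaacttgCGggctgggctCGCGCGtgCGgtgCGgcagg
Adra2a: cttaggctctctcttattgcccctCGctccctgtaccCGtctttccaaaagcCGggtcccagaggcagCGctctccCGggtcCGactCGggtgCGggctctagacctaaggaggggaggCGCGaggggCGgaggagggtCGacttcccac
The second group holds 6 members whose RNA was called different in at least 1 comparison, shown to set their CpG content beside their peaks. They are *Adra2b* (chr2:127188794-127188943, plus strand), *Chrm4* (chr2:91762196-91762345, plus strand), *Gria4* (chr9:4796235-4796384, minus strand), *Gabrr1* (chr4:33219346-33219495, plus strand), *Chrm3* (chr13:9878330-9878479, minus strand) and *Gabrg1* (chr5:71233857-71234006, minus strand).
Adra2b: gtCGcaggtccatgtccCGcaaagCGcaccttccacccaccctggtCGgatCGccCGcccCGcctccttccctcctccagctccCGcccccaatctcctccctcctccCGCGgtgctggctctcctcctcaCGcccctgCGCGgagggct
Chrm4: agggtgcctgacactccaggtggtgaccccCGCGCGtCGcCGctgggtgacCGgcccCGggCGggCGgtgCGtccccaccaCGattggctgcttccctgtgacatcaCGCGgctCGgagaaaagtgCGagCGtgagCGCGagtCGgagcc
Gria4: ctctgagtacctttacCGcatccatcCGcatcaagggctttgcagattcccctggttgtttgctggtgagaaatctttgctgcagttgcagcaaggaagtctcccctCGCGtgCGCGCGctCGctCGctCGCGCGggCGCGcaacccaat
Gabrr1: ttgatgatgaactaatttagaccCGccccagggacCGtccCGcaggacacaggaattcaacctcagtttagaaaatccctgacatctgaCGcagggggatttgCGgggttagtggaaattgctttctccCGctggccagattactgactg
Chrm3: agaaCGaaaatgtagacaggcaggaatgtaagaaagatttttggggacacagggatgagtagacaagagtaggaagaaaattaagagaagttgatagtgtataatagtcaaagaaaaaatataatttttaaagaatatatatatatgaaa
Gabrg1: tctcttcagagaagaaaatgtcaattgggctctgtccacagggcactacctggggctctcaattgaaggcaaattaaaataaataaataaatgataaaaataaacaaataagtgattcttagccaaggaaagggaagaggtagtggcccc
The printed windows of *Adra1d*, *Grm4* and *Adra2a* held 12, 20 and 12 CpGs, and those of *Adra2b* and *Chrm4* held 13 and 19. The *Chrm3* window held 1 CpG and the *Gabrg1* window held 0. Over 1 kb centred on the start, the counts were 105, 136 and 78 for *Adra1d*, *Grm4* and *Adra2a*, and 12 and 19 for *Chrm3* and *Gabrg1*.

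Receptor promoters were marked by PRC2 in WT mESCs more often than promoters in general. A promoter is any annotated transcription start ± 5 kb, and a peak overlapping it by at least 1 bp counted. WT SUZ12 peaks lay at 41 of 78 members (52.6%, 95% Wilson interval 41.6 to 63.3) against 17.1% of 17424 genes placed on mm9. WT H3K27me3 peaks lay at 49 members (62.8%, 51.7 to 72.7) against 22.0% of genes. Both peaks lay at 39 members (50%, 39.2 to 60.8) against 15.6%, at 17 against 6.85% when peaks needed a p of 1e-20 or less, and at 12 against 5.54% with lists cut to equal length. Among the 3839 genes below the RNA filter described further on, which share with most receptors a low level, 27.2% had a WT SUZ12 peak, 35.2% an H3K27me3 peak and 26.1% both. The plot of promoter shares sets these beside the mutant lines.

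**Figure D1:**
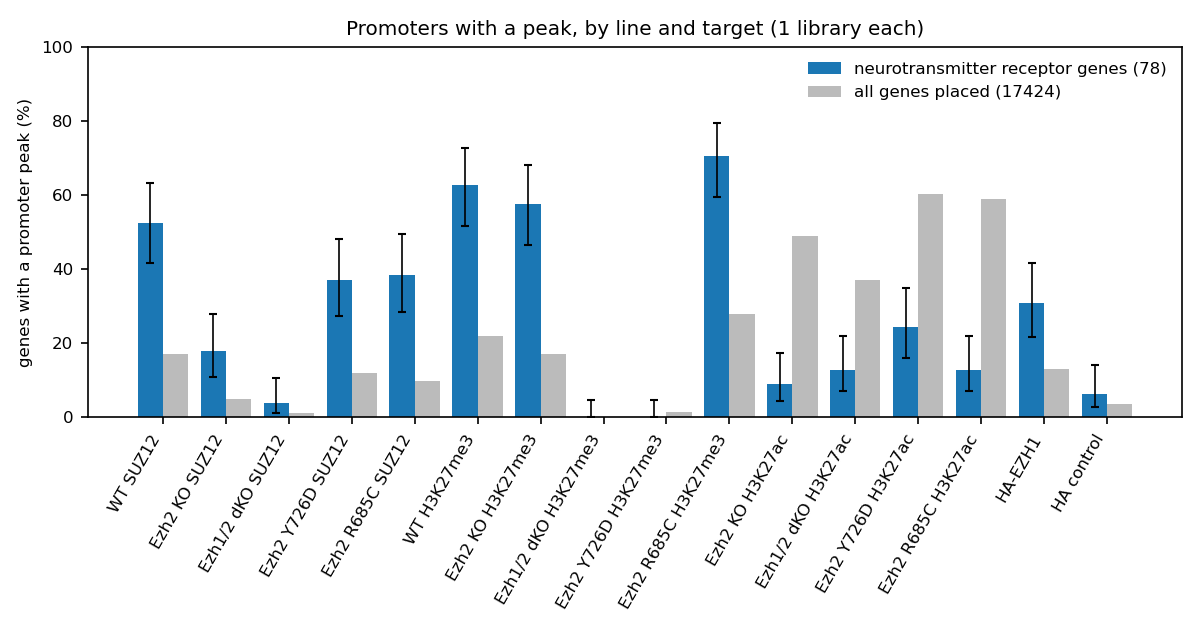
Percentage of the 78 receptor genes (blue, with 95% Wilson intervals for counting error only) and of all 17424 placed genes (grey) with a promoter peak in each ChIP-seq list, 1 library per list. SUZ12 and H3K27me3 shares of the receptors lie above those of all genes in WT, and the H3K27me3 bars of the receptors are at 0 in the *Ezh1/2* dKO and *Ezh2* Y726D lines.

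The PRC2-marked promoters were distributed over families. Both WT peaks were present at 7 of 10 serotonin receptors, 6 of 8 adrenergic receptors, 5 of 7 NMDA subunits, 5 of 7 metabotropic glutamate receptors, 3 of 4 kainate subunits and 2 of 3 muscarinic receptors. They were present at 5 of 13 GABA-A and 4 of 16 nicotinic subunits. None of 4 glycine receptor genes, of 3 AMPA subunits or the only dopamine receptor in the table, *Drd3*, carried both. Among the members with SUZ12 but no H3K27me3 peak was *Gria3*, an AMPA subunit gene. The 10 members with H3K27me3 alone included *Chrnb2*, *Chrnd*, *Gabrb2*, *Glra1*, *Grik5*, *Grin2d*, *Grin3b* and *Htr5a*, and 27 members had neither peak.

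The strongest WT SUZ12 peaks belonged to G protein-coupled adrenergic and glutamate receptors and to glutamate channel subunits. *Adra1d* had a −log10 p of 118.9 at chr2:131386366-131388931, with its summit 294 bp downstream of the nearest start. *Grm4* followed with 93.7 at chr17:27648247-27649884, and *Adra2a* with 87.5 at chr19:54119216-54121489. The delta subunit *Grid1* and the NMDA subunit *Grin2a* each reached 83.0, *Adra2b* 78.6, the beta-1 adrenergic receptor gene *Adrb1* 78.1, *Grin1* 69.7, *Grm8* 68.3 and *Grin3a* 59.0. Summits of 37 of the 41 peaks lay within 1 kb of a start, and 33 lay downstream of it. *Grin1* was an exception, with its summit 6315 bp from the nearest start, although the peak region reached into the promoter window.

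Marked receptor promoters held more CpGs than unmarked ones. Over 1 kb around the most upstream start, the median was 53.0 CpGs for the 39 members with both WT peaks, 42.5 for 12 members with 1 of them and 12.0 for 27 members with neither. At least 30 CpGs were found at 30 of the 39 (76.9%) and at 4 of the 27 (14.8%). For all genes with both peaks the median was 64.0, and for all genes with neither it was 51.0, with 67.6% at 30 or more. Unmarked receptor promoters were CpG-poor in comparison with unmarked promoters of the genome, and the 78 members together had a median of 33.5 against 53.0 for all genes.

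In *Ezh2* KO cells, most receptor promoters with H3K27me3 in WT had a peak of it. A SUZ12 peak was listed at a minority of those that had one in WT, a share that depended on list length. H3K27me3 peaks lay at 45 members (57.7%, 46.6 to 68.0), against 17.1% of genes, and 41 of these had the mark in WT. The 8 members without it in *Ezh2* KO were *Chrnb2*, *Gabrb2*, *Grik3*, *Grik4*, *Grik5*, *Grin3b*, *Htr3b* and *Htr5a*, which include 3 kainate subunits. Members with an H3K27me3 peak in *Ezh2* KO and none in WT included *Chrna7*, *Glrb* and *Gria4*. SUZ12 peaks lay at 14 members (17.9%, 11 to 27.9), against 4.86% of genes, and all 14 had a SUZ12 peak in WT as well. The SUZ12 list held 1578 peaks in *Ezh2* KO and 5404 in WT. With lists cut to equal length, SUZ12 lay at 14 members in *Ezh2* KO and 16 in WT. The paper reports proper association of SUZ12 with PRC2 sites in *Ezh2* KO. Depths of the ChIP-seq libraries are unknown, so the number of peaks in a list and their −log10 p are not on a common scale between lines.

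In *Ezh1/2* dKO cells no receptor promoter had an H3K27me3 peak (0 of 78, upper limit 4.69%), against 0.115% of genes. SUZ12 peaks remained at 3 members (3.85%, 1.32 to 10.7), against 1.17% of genes. They were weak peaks at *Grm4* (−log10 p 11.7), the nicotinic subunit gene *Chrna4* (10.8) and the GABA-A subunit gene *Gabra5* (10.4), close to the threshold of 10.

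The catalytic mutant lines differed in H3K27me3 while both retained SUZ12. *Ezh2* Y726D cells had an H3K27me3 peak at no receptor promoter (0 of 78, upper limit 4.69%), against 1.38% of genes, and a SUZ12 peak at 29 (37.2%, 27.3 to 48.3), against 12.1%. *Ezh2* R685C cells had H3K27me3 at 55 members (70.5%, 59.6 to 79.5), against 28.0% of genes, and SUZ12 at 30 (38.5%, 28.4 to 49.6), against 9.78%. Of the 29 SUZ12 peaks in *Ezh2* Y726D, 27 were at WT SUZ12 promoters and the others were at *Grik5* and *Grin3b*. Of the 30 in *Ezh2* R685C, 29 were at WT SUZ12 promoters. H3K27me3 in *Ezh2* R685C covered 47 of the 49 WT members and 8 more, which included *Chrnb1*, *Chrnb4*, *Chrne*, *Gabrr2*, *Glrb*, *Gria3* and *Gria4*.

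HA-EZH1 peaks, which mark where tagged EZH1 bound in cells without endogenous EZH1 and EZH2, lay at 24 members (30.8%, 21.6 to 41.7), against 13.1% of genes. The HA control list had peaks at 5 members (6.41%, 2.77 to 14.1), against 3.63% of genes. These 5 were *Adra2b*, *Chrm4*, *Chrnd*, *Grik4* and *Grin2a*, and 20 of the 24 HA-EZH1 members had no control peak. All but 1 of the 24 were WT SUZ12 promoters, and the exception was *Chrnd*, which also had a control peak.

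The same promoters recurred across lines. SUZ12 peaks in WT, *Ezh2* KO, *Ezh2* Y726D and *Ezh2* R685C were shared by 14 members, which included *Adra1d*, *Adra2a*, *Adra2b*, *Adrb1*, *Chrna4*, *Gabra5*, *Grid1*, *Grin2a*, *Grin3a*, *Grm4*, *Grm6*, *Grm8* and *Htr5b*. These are also the 14 with SUZ12 in *Ezh2* KO, and each had an HA-EZH1 peak. Their WT SUZ12 peaks had a median −log10 p of 73.2 (30.6 to 118.9) and covered a median of 2397 bp of the promoter window. The other 27 WT SUZ12 members had medians of 20.9 (10.5 to 69.7) and 883 bp, and 9 of them had an HA-EZH1 peak, 13 a SUZ12 peak in *Ezh2* Y726D and 15 one in *Ezh2* R685C. A median of 71.5 CpGs per 1 kb was found for the 14 and of 49.0 for the 27. Across all genes, 845 WT SUZ12 promoters had a SUZ12 peak in the shorter *Ezh2* KO list (HA-EZH1 at 99.4%) and 2143 did not (43.1%). The division was thus not particular to receptors. A WT SUZ12 peak with none in any mutant line was found at 8 members, among them *Chrm1*, *Chrna10*, *Chrna5*, *Gria3*, *Grik3*, *Htr1d* and *Htr3b*.

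**Figure D2:**
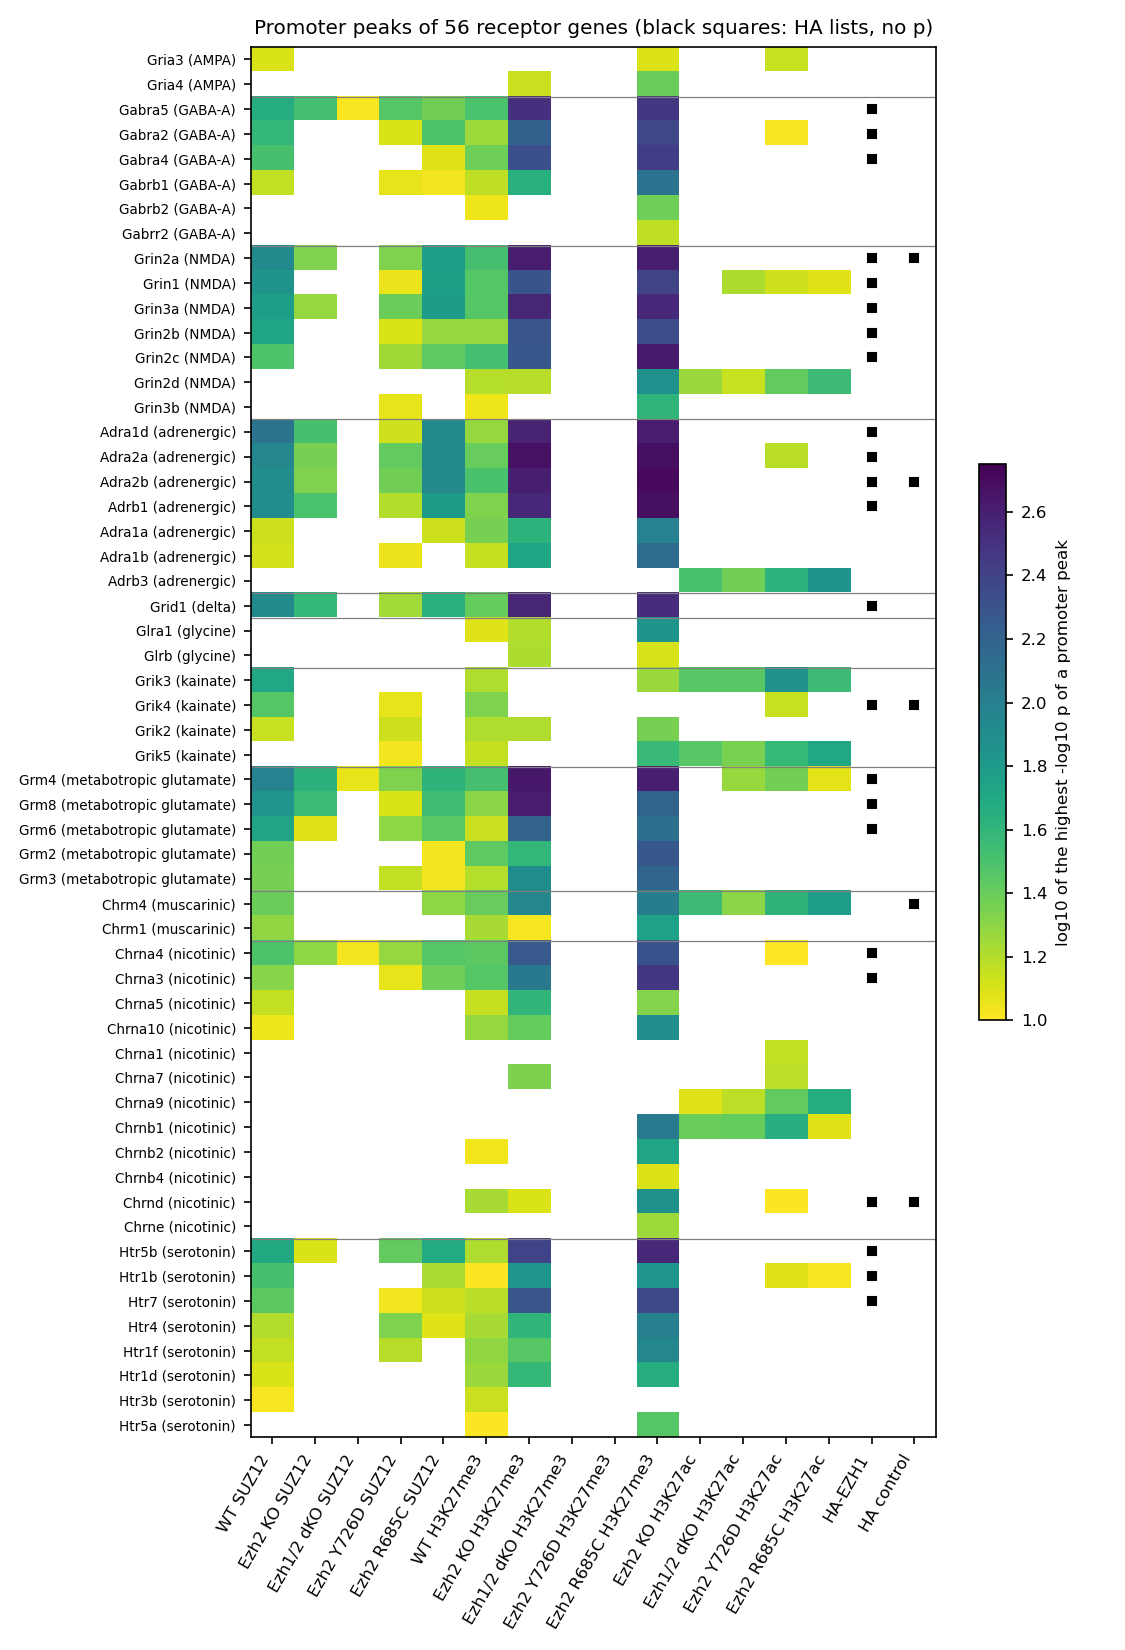
Promoter peaks at the receptor genes reported here that had a peak in any list, ordered by family, with the colour giving log10 of the highest −log10 p in each list and black squares marking peaks of the HA lists, which are shown without a p. Colours compare genes within a list and not lists with each other, and the SUZ12 and H3K27me3 columns of *Ezh1/2* dKO are nearly empty.

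H3K27me2, a state that PRC2 deposits broadly over the genome outside its strongest targets, was laid over receptor promoters in *Ezh2* KO. It was measured as the percentage of the promoter window covered by listed regions at 75 members on the chromosomes shared by all lists. The mean was 56.4% in *Ezh2* KO against 11.6% in WT, and lower values of 20.6% and 26.6% were found for *Ezh1/2* dKO and *Ezh2* Y726D. Over all genes the means were 22.1% in WT and, in the order just given for the mutants, 21.6%, 16.8% and 19.1%. The paper reports that the last-named mutant lines lost every form of this methylation. Counting only the blocks listed inside the regions, members had 0% in WT, *Ezh1/2* dKO and *Ezh2* Y726D and 15.3% in *Ezh2* KO. Coverage in *Ezh1/2* dKO and *Ezh2* Y726D above that of WT is therefore not shown to be H3K27me2, and its source was not tested. Coverage in *Ezh2* KO exceeded that in WT at 65 of 75 members. Among the 39 members with both WT peaks the mean went from 8.99% in WT to 76.1% in *Ezh2* KO, and 33 of them were covered over more than 50%. All genes with both peaks went from 14.6% to 67.9%, so this change was shared by PRC2 targets of the genome.

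At single promoters the listed H3K27me2 coverage was higher or lower in *Ezh2* KO, but the lower cases rested on weak regions. Coverage of *Adra1d* and *Adra2b* was 0% in WT and 100% in *Ezh2* KO, and that of *Chrna4* was 23.7% and 100%. In contrast, coverage of *Grik3* was 74.7% in WT and 13% in *Ezh2* KO, that of *Chrna9* 42.9% and 2.82%, and that of *Chrnb1* 43.3% and 18.4%. These 3 are among the 10 members with the highest RNA level. Their WT regions had a highest −log10 p of 1.65, 1.78 and 1.68. The *Ezh2* KO regions at *Adra1d*, *Adra2b* and *Chrna4* reached 6.59, 5.31 and 5.2. Weak regions were also listed in *Ezh1/2* dKO, where 35.6% of the *Chrna9* promoter was covered at 1.6. A loss of H3K27me2 at these 3 is therefore not shown.

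H3K27me1 could be compared at 51 members on the 9 chromosomes found in every list. Its mean coverage was 5.44% in WT and 34.99% in *Ezh2* KO, with 13.8% and 22.2% for *Ezh1/2* dKO and *Ezh2* Y726D, beside 28.2%, 16.9%, 10.8% and 18.9% over all genes. Chromatin accessibility, given as the percentage of the start ± 1 kb covered by ATAC-seq regions, moved little on average, with 57.3%, 63.1%, 63.0% and 57.3% in the same order at the 78 members and 57.0%, 54.6%, 56.4% and 56.6% over all genes. The ATAC-seq lists held 752009 to 798238 regions each, which is a permissive set. Coverage in the broad lists depended strongly on the regions admitted, as given among the processing alternatives. With only the blocks listed inside the regions, mean H3K27me1 coverage of members was 0.0690% in WT and 0% in each mutant line with a list. Coverage above that of WT in a mutant line is therefore not shown to be H3K27me1, and its source was not tested.

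**Figure D3:**
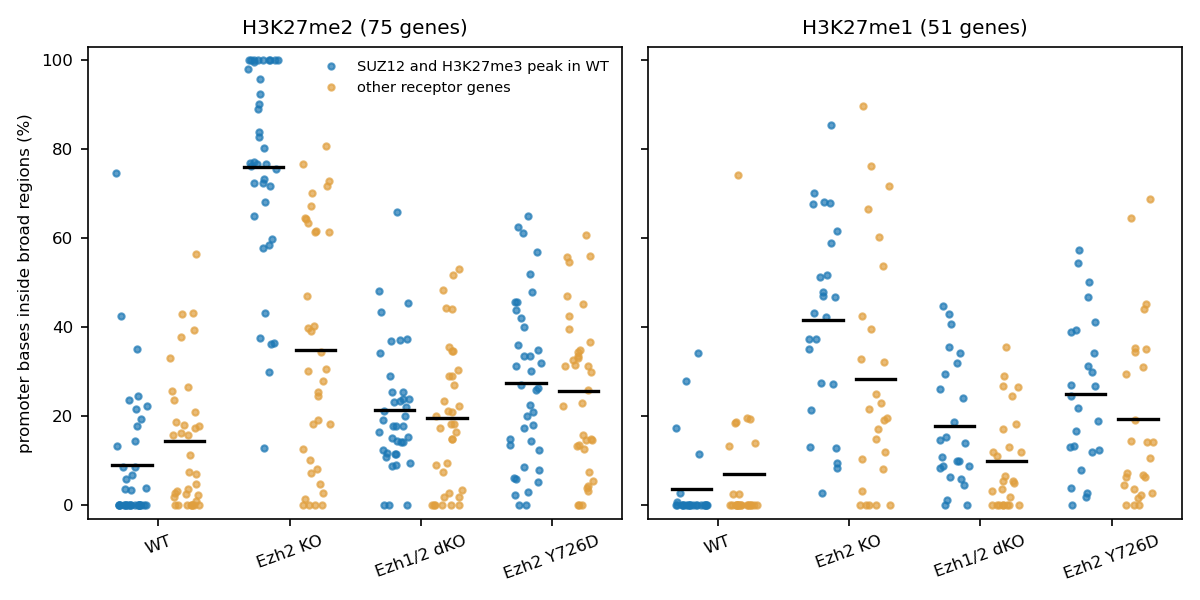
Percentage of each receptor promoter covered by H3K27me2 regions (75 members) and H3K27me1 regions (51 members) in the 4 lines with both lists, with 1 point per gene and a bar at each group's mean. Blue points are members with both WT peaks and orange points the others, and the blue H3K27me2 mean rises from 8.99% in WT to 76.1% in *Ezh2* KO.

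Acetylation of the same lysine, H3K27ac, which marks active promoters and enhancers, was found at fewer receptor promoters than promoters in general in every line with a list, and at shares near those of other genes with little RNA. Peaks lay at 7 members in *Ezh2* KO (8.97%, against 48.9% of genes), 10 in *Ezh1/2* dKO (12.8%, against 37.1%), 19 in *Ezh2* Y726D (24.4%, against 60.4%) and 10 in *Ezh2* R685C (12.8%, against 59.1%). Of the 3839 genes below the RNA filter, 10.4% had an H3K27ac peak in *Ezh2* KO, 8.70% in *Ezh1/2* dKO, 21.7% in *Ezh2* Y726D and 14.4% in *Ezh2* R685C. Many of these peaks lay far from the start. Within 1 kb of a start, 3, 4, 11 and 4 members had one in the same order, against 43.7%, 32.3%, 54.3% and 54.1% of genes, and in *Ezh2* Y726D the summit of the highest peak was within 1 kb for 8 of the 19. The 7 members with a peak in the 5 kb window in all 4 lines were *Adrb3*, *Chrm4*, *Chrna9*, *Chrnb1*, *Grik3*, *Grik5* and *Grin2d*. In *Ezh2* Y726D the highest summit lay 346 bp from the nearest start at *Chrna9* and 1106 bp from it at *Grik3*. The distance was −2361 bp at *Grin2d*, −4366 bp at *Grik5*, −4648 bp at *Adrb3* and −4696 bp at *Chrnb1*, where negative values are upstream, and 4293 bp at *Chrm4*. In *Ezh2* Y726D alone it was found at 8, namely *Adra2a*, *Chrna1*, *Chrna4*, *Chrna7*, *Chrnd*, *Gabra2*, *Gria3* and *Grik4*, and 59 members had it in no line. Among the 39 members with both WT peaks, 9 had an H3K27ac peak in *Ezh2* Y726D (23.1%, against 48.0% of all such genes) and 4 in *Ezh1/2* dKO (10.3%, against 19.6%). WT H3K27ac was not analysed here, so no gain relative to WT can be stated.

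Most receptor genes were barely transcribed in these cells. Counts are normalised counts, in which 1 read is worth 0.824 to 1.33 depending on the library. On average over the 8 libraries 22 members were below 1 normalised count, 6 reached 20 and 2 reached 100. A read was found in every library for 27 members, and 13 had none in WT. The numbers of members with a read were 50 and 59 in WT, 38 and 52 in *Ezh2* KO, 65 and 65 in *Ezh1/2* dKO and 63 and 52 in *Ezh2* Y726D. In bulk RNA, a level can fall because fewer cells express a gene or because each cell holds less of its RNA, and these cannot be told apart.

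The kainate subunit gene *Grik3* and the beta-3 adrenergic receptor gene *Adrb3* made up most of the receptor RNA. *Grik3* stood at 172 and 540 in WT, 568 and 546 in *Ezh2* KO, 549 and 415 in *Ezh1/2* dKO and 676 and 368 in *Ezh2* Y726D. *Adrb3* stood at 408 and 445 in WT, 534 and 565 in *Ezh2* KO, 544 and 505 in *Ezh1/2* dKO and 246 and 351 in *Ezh2* Y726D. The first WT library was low for *Grik3*, and both *Ezh2* Y726D libraries lay below the others for *Adrb3*. Per kb of exon, the mean level of *Adrb3* was 155.5 and that of *Grik3* 53.4 normalised counts. Neither was called in any of the 5 comparisons. For *Grik3* this rested on the WT libraries, since leaving out the second one, and so keeping the low one, gave calls in all 3 mutant lines against WT, in the order *Ezh2* KO, *Ezh1/2* dKO, *Ezh2* Y726D (log2 differences 1.69, 1.47 and 1.53, limma adjusted p = 0.0811, 0.0790 and 0.0774). *Adrb3* was lower in *Ezh2* Y726D than in *Ezh1/2* dKO at a limma adjusted p of 0.0883, but by less than the 2-fold required (log2 difference −0.83), and it was called there without the second *Ezh2* Y726D library (−1.09, adjusted p = 0.0366). *Grik3* had both PRC2 peaks in WT and an H3K27ac peak in all 4 lines with a list, and *Adrb3* had H3K27ac, with the distant summit given above, and no PRC2 peak.

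Without these 2 genes, the members summed to 436 and 375 normalised counts in WT, 293 and 318 in *Ezh2* KO, 626 and 708 in *Ezh1/2* dKO and 532 and 610 in *Ezh2* Y726D. Both *Ezh2* KO libraries lay below both WT libraries, and all libraries of the other mutant lines lay above them. The 13 GABA-A subunits showed this order only in part, since WT and *Ezh2* KO overlapped, at 65.4 and 31.8 in WT, 35.5 and 21.3 in *Ezh2* KO, 104.7 and 102.1 in *Ezh1/2* dKO and 82.0 and 123.1 in *Ezh2* Y726D. The 3 muscarinic receptors summed to 16.0 and 8.7, 9.4 and 6.8, 34.6 and 35.5, and 23.2 and 42.5 in the same order of lines. The 16 nicotinic subunits summed to 200.1 and 144.4, 145.3 and 149.0, 184.6 and 189.1, and 209.5 and 239.4. No such sums were made for other genes of low level, so the order is not shown to be particular to receptors. With no filter, the median log2 difference to WT in *Ezh1/2* dKO was 0.36 for the 78 members and 0.07 over all 18055 genes. In *Ezh2* KO it was −0.23 and −0.0007.

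For the tests, genes with a mean of at least 5 normalised counts were kept, which left 13872 genes and 26 of the 78 members. These were 7 nicotinic, 4 GABA-A, 3 adrenergic, 2 AMPA, 2 kainate, 2 NMDA and 2 muscarinic genes and 1 each of the glycine, delta, serotonin and metabotropic glutamate families. The filter kept 10 of the 39 members with both WT peaks and 16 of the other 39. A low gene that rose in 1 line could pass through that line alone, so the counts below describe 26 genes and not the families. Of the genes named as called below, *Adra2b*, *Gabrg1* and *Gria4* had means under 5 in WT and *Ezh2* KO. *Chrm3* had a mean under 5 in every line except *Ezh1/2* dKO. A gene was called at a Benjamini-Hochberg adjusted p below 0.1 over all 13872 genes, by limma on log2(normalised count + 1), with at least a 2-fold change. Fold changes are on that scale and understate the change of low genes.

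**Figure D4:**
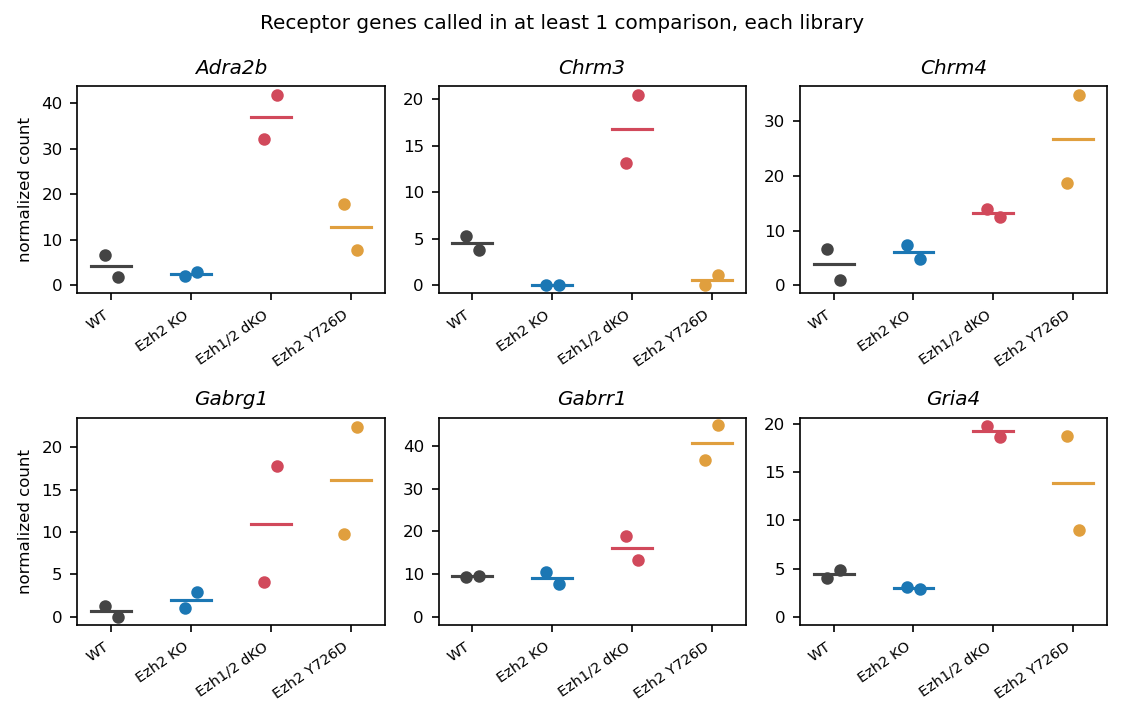
Normalised counts of 6 receptor genes called in at least 1 comparison, with 1 point per library, 2 libraries per line, a bar at the line's mean and a vertical axis of its own for each gene. *Chrm3* has no read in *Ezh2* KO, and *Adra2b* is highest in *Ezh1/2* dKO.

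The comparison of *Ezh1/2* dKO with WT asked what RNA changed once both methyltransferases were gone. Of the 26 receptors, 2 were called higher, against 3.63% of all genes tested, and 0 lower, against 0.389%. At an unadjusted p below 0.05 with the same fold, 7 were higher, against 8.61% of genes, and 0 lower, against 1.03%. The median log2 fold change of the 26 was 0.77 with 21 positive, beside a median of 0.01 and 50.9% positive over all genes. After quantile normalisation, which gives every library the same distribution of values, it was 0.27 with 16 positive, beside −0.03 and 46.7% positive. No receptor was called after quantile normalisation in this or any other comparison. For the 6 members with a mean of at least 20 the median was 0.31, beside −0.04 over all genes at that level.

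*Adra2b*, the alpha-2B adrenergic receptor gene with one of the strongest SUZ12 peaks, rose in *Ezh1/2* dKO. It stood at 6.67 and 1.93 normalised counts in WT, 2.09 and 2.90 in *Ezh2* KO, 32.1 and 41.7 in *Ezh1/2* dKO and 17.8 and 7.83 in *Ezh2* Y726D. Both *Ezh1/2* dKO libraries lay above all others. The log2 difference to WT was 2.99 ± 0.66 (SE, limma adjusted p = 0.0518), and the call was lost without the second WT library (2.29, adjusted p = 0.112). Its promoter had SUZ12 in every line except *Ezh1/2* dKO and H3K27ac in none of the 4 lines with a list.

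The *Adra2b* call was also lost when either *Ezh1/2* dKO library was left out (limma adjusted p = 0.292 and 0.364). Over all genes the higher calls then fell from 503 to 3 without the first and to 1 without the second, with fewer libraries in the fit.

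Genes just short of a call included *Glrb*, which encodes the glycine receptor beta subunit. It stood at 4 and 5.78 in WT, 9.41 and 4.84 in *Ezh2* KO, 32.1 and 24.0 in *Ezh1/2* dKO and 12.5 and 3.36 in *Ezh2* Y726D. The log2 difference of *Ezh1/2* dKO to WT was 2.31 ± 0.66 (limma adjusted p = 0.111), which did not pass. It passed without either *Ezh2* Y726D library (adjusted p = 0.0648 and 0.0591).

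*Gria4*, an AMPA subunit gene, passed only without the second *Ezh2* Y726D library (0.0972), and *Chrm4* only without the first WT library (0.0746). *Grin1*, the obligatory NMDA subunit, had replicates too far apart for a call, at 6.67 and 5.78 in WT, 5.23 and 17.4 in *Ezh2* KO, 14.01 and 48.8 in *Ezh1/2* dKO and 8.02 and 44.7 in *Ezh2* Y726D. An annotated non-coding gene overlaps *Grin1* on the opposite strand, and counts without strand cannot separate them.

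The comparison of *Ezh2* Y726D with WT asked the same of cells whose mutant EZH2 remained present. Of the 26 receptors, 3 were called higher, against 1.66% of genes, and 0 lower, against 1.06%. At an unadjusted p below 0.05 with the fold, 4 were higher, against 4.79% of genes, and 1 lower, against 2.78%. The latter was *Chrm3*, with a log2 difference of −1.93. The median over the 26 was 0.36 with 18 positive, beside −0.01 and 49.0% positive over all genes. After quantile normalisation it was 0.19 with 17 positive, beside 49.9% positive over all genes.

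The called genes were *Gabrr1* and *Gabrg1*, which encode GABA-A rho and gamma subunits, and *Chrm4*, a muscarinic receptor gene coupled to inhibitory G proteins. *Gabrr1* stood at 9.34 and 9.63 in WT, 10.5 and 7.74 in *Ezh2* KO, 19.0 and 13.3 in *Ezh1/2* dKO and 36.6 and 44.7 in *Ezh2* Y726D. Its log2 difference to WT was 1.98 ± 0.46 (limma adjusted p = 0.0730). Both *Ezh2* Y726D libraries lay above all others, and the promoter had no SUZ12, H3K27me3 or H3K27ac peak in any list.

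*Gabrg1* stood at 1.33 and 0 in WT, 1.05 and 2.90 in *Ezh2* KO, 4.12 and 17.8 in *Ezh1/2* dKO and 9.81 and 22.4 in *Ezh2* Y726D, a log2 difference to WT of 3.38 ± 0.85 (limma adjusted p = 0.0950). The ranges of *Ezh1/2* dKO and *Ezh2* Y726D overlapped, and the promoter had no peak. *Chrm4* stood at 6.67 and 0.963 in WT, 7.32 and 4.84 in *Ezh2* KO, 14.01 and 12.4 in *Ezh1/2* dKO and 18.7 and 34.7 in *Ezh2* Y726D, a log2 difference of 2.77 ± 0.71 (limma adjusted p = 0.0988). *Chrm4* overlaps the protein-coding gene *Mdk* on the opposite strand, so its reads cannot be assigned with certainty. Its promoter window had both PRC2 peaks in WT and an HA control peak. The highest H3K27ac peak of each of the 4 lines had its summit 4017 to 4293 bp downstream of the nearest *Chrm4* start, so it cannot be assigned to this promoter.

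Each of these 3 calls held in 3 or 4 of 17 alternative analyses that gave a value. The *Gabrr1* call was lost without any single one of the 8 libraries (limma adjusted p = 0.110 to 0.249). *Gabrg1* kept its call only without the first *Ezh2* Y726D library (0.0887), and the others gave 0.110 to 0.324. *Chrm4* kept it without the first *Ezh2* Y726D (0.0966) or the first WT library (0.0457), and the others gave 0.152 to 0.322. Libraries of lines not compared were among those that mattered, because all lines share 1 estimate of the spread.

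The comparison of *Ezh2* KO with WT asked what was lost with EZH2 while EZH1 remained. No receptor was called by limma in either direction, against 0.0937% of genes called higher and 0.31% lower, and edgeR on the recovered reads also gave 0. DESeq2 called 1 lower. At an unadjusted p below 0.05 with the fold, 0 were higher, against 1.7% of genes, and 4 lower, against 2.65%. These included *Chrm3* (log2 difference −2.47), the metabotropic glutamate receptor gene *Grm2* (−1.93) and the nicotinic subunit gene *Chrna7* (−1.51).

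*Chrm3*, a muscarinic receptor gene coupled to Gq, had 5.34 and 3.85 in WT, no read in *Ezh2* KO, 13.2 and 20.4 in *Ezh1/2* dKO, and 0 and 1.12 in *Ezh2* Y726D. With a floor of 3 reads over the *Ezh2* KO libraries, the ratio of WT to *Ezh2* KO was 3.04. *Chrm3* was not called here (limma adjusted p = 0.296), and the ratio leaves out the counting error of 8 reads in WT.

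*Chrna7* stood at 20.01 and 15.4 in WT. Its level in *Ezh2* KO was 6.27 and 4.84, and an H3K27me3 peak was listed there but not in WT. Listed H3K27me3 peaks were weaker in WT, with a median highest −log10 p over members of 17.0 against 79.6. A gain of the mark is therefore not shown, and a link to the RNA level was not tested. The WT libraries had 16.0 and 7.70 for *Grm2*, and its *Ezh2* KO libraries were at 4.18 and 0.968. In both the ranges were apart, but the limma adjusted p was 0.491 and 0.460. The median over the 26 was −0.08 with 10 positive, beside −0.01 and 48.7% positive over all genes.

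The direct comparison of *Ezh2* KO with *Ezh1/2* dKO held the receptors with the largest differences. Of the 26, 5 were called lower in *Ezh2* KO, against 3.52% of genes, and 0 higher, against 0.0577%. At an unadjusted p below 0.05 with the fold, 7 were lower, against 8.9%, and 0 higher, against 0.346%. The median was −1.01 with 3 positive, beside 0.01 and 51.6% positive over all genes. After quantile normalisation it was −0.11 with 12 positive, beside 0.04 and 55.3% positive. For the 6 members with a mean of at least 20 it was −0.03, beside 0.05 over all genes at that level. The comparison shares its *Ezh1/2* dKO libraries with the comparison to WT, and is not independent of it.

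Those called included *Chrm3* (log2 difference −4.12 ± 0.72, limma adjusted p = 0.0236), *Adra2b* (−3.44 ± 0.66, adjusted p = 0.0319) and *Gria4* (−2.33 ± 0.56, adjusted p = 0.0756). DESeq2 also called *Chrm3* and *Adra2b* (DESeq2 adjusted p = 0.0353 and 0.0131) but not *Gria4* (0.233). By the floor of 3 reads, the *Chrm3* ratio of *Ezh1/2* dKO to *Ezh2* KO was 11.1, leaving out the counting error of 39 reads in *Ezh1/2* dKO. *Gria4* stood at 4 and 4.81 in WT, 3.14 and 2.90 in *Ezh2* KO, 19.8 and 18.6 in *Ezh1/2* dKO and 18.7 and 8.95 in *Ezh2* Y726D. Its promoter had an H3K27me3 peak in the lists of *Ezh2* KO and *Ezh2* R685C but not of WT, without a SUZ12 peak in any line.

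The promoters of these 3 were in different PRC2 states in *Ezh2* KO. *Adra2b* and *Gria4* had an H3K27me3 peak there, at a −log10 p of 403 and 13.8, and *Adra2b* had a SUZ12 peak as well. *Chrm3* had no SUZ12, H3K27me3 or H3K27ac peak in any line, and its 150 bases upstream are CpG-poor, as printed above. Leaving out the first *Ezh2* KO library lost the 3 calls (limma adjusted p = 0.115 to 0.270). Leaving out the second lost *Adra2b* (0.122) and *Gria4* (0.226) and kept *Chrm3* (0.0974). Without either *Ezh1/2* dKO library *Adra2b* (0.227 and 0.344) and *Gria4* (0.461 and 0.460) were lost, and *Chrm3* fell below the filter and was not tested.

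In the comparison of *Ezh2* Y726D with *Ezh1/2* dKO, which sets cells with a mutant EZH2 against cells with none, 1 receptor was called lower, against 1.49% of genes, and 0 higher, against 0.187%. This was *Chrm3*, with a log2 difference of −3.58 ± 0.72 (limma adjusted p = 0.0640), and the call was lost without the first *Ezh2* Y726D library (adjusted p = 0.105). Its 0 and 1.12 normalised counts in *Ezh2* Y726D stood against 13.2 and 20.4 in *Ezh1/2* dKO. *Chrm3* passed the filter only through *Ezh1/2* dKO, the line in which it was high. Without either library of that line it was not tested. At an unadjusted p below 0.05 with the fold, 5 were lower in *Ezh2* Y726D, against 5.49% of genes, and 2 higher, against 0.843%. The higher ones were *Chrna9*, a nicotinic subunit gene of sensory hair cells, and *Gabrr1*, by 1.42 and 1.29 on the log2 scale. *Chrna9* stood at 77.6 and 94.0 in *Ezh2* Y726D, 39.6 and 24.9 in *Ezh1/2* dKO and 62.7 and 28.9 in WT. The median over the 26 was −0.38, and it was 0.05 after quantile normalisation.

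**Figure D5:**
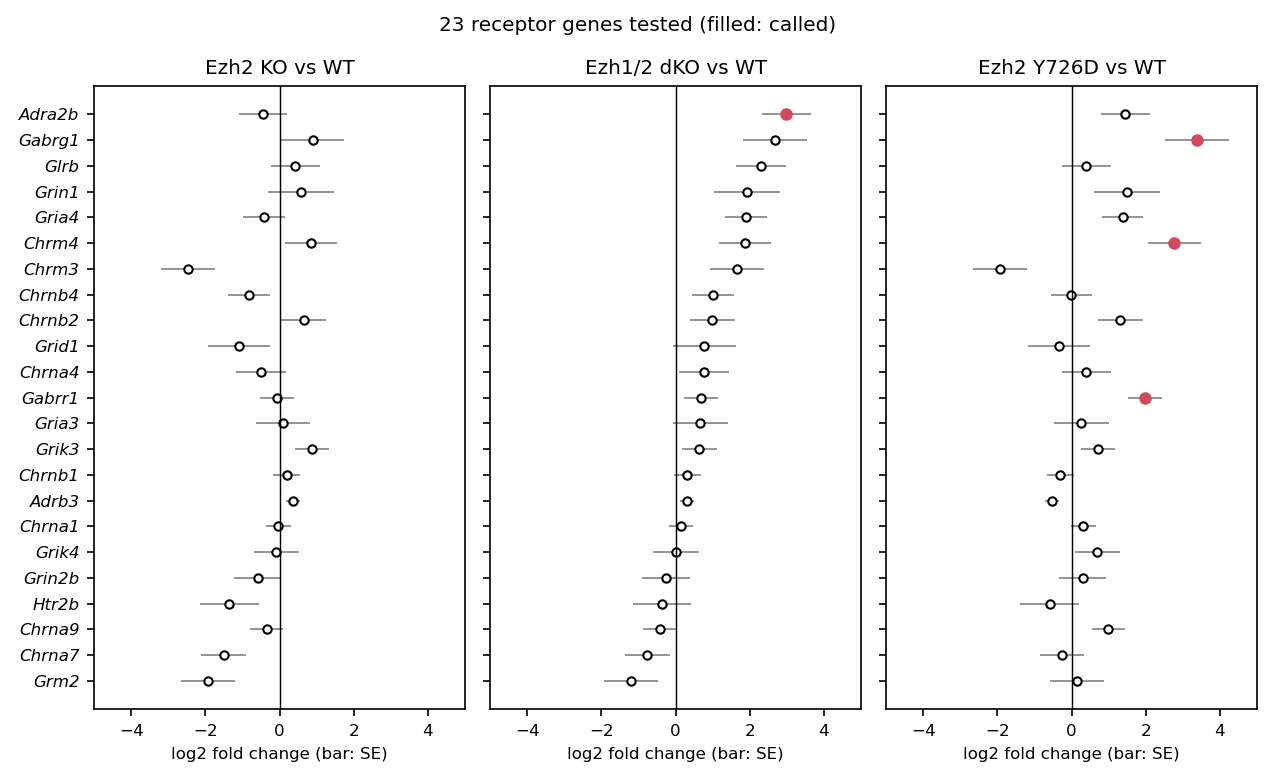
log2 fold changes by limma, with standard errors, of 23 of the receptor genes that passed the filter, for each of the 3 mutant lines against WT (2 libraries per line, log2(normalised count + 1) scale), with filled symbols for called genes. The called genes shown are *Adra2b* in *Ezh1/2* dKO and *Chrm4*, *Gabrg1* and *Gabrr1* in *Ezh2* Y726D.

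The filter left 10 of the 39 receptors with a PRC2-marked promoter in WT for a comparison of RNA with the other receptors. In *Ezh1/2* dKO against WT, the median log2 difference was 0.77 for the 10 tested members with both WT peaks, of which 8 were positive. It was 0.84 for the other 16, of which 13 were positive. In *Ezh2* Y726D against WT the medians were 0.54 (8 of 10 positive) and 0.29 (10 of 16), and in *Ezh2* KO against WT −0.48 (3 of 10) and −0.03 (7 of 16). Each group held 1 call in *Ezh1/2* dKO. The difference between the groups was not tested.

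Some marked receptors below the filter had at most 1 read in each WT and *Ezh2* KO library and more in some libraries of the other lines. *Gabra5*, with SUZ12 in all 5 lines though near the threshold in *Ezh1/2* dKO, had no read in WT or *Ezh2* KO, 3 and 2 reads in *Ezh1/2* dKO and 2 and 4 in *Ezh2* Y726D. *Grm8* likewise had no read in WT and *Ezh2* KO and 1 to 3 in each of the other 4 libraries. *Grin2a* had 1 and 0 reads in WT, 0 and 1 in *Ezh2* KO, 8 and 13 in *Ezh1/2* dKO and 0 and 7 in *Ezh2* Y726D. These counts are near the detection limit of the libraries and were not tested. The genes are examples. How many other marked members below the filter behaved alike was not counted, and neither was the share over all low genes.

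Genes that work with these receptors moved in small numbers. Of 22 listed other receptors for GABA, purines, histamine and trace amines, 18 were in the table and 11 were tested. *Adora2a*, an adenosine receptor gene, was the 1 called higher in *Ezh1/2* dKO, at 1.33 and 0.963 in WT and 12.4 and 14.2 in *Ezh1/2* dKO (log2 difference 2.74, limma adjusted p = 0.0628). *P2rx3*, an ATP-gated channel gene of sensory neurons, was the 1 called lower in *Ezh2* Y726D, at 791 and 763 in WT and 30.3 and 6.71 in *Ezh2* Y726D (−5.65 ± 0.50, adjusted p = 0.00197). It stood at 611 to 961 in the other mutant lines, and none of the 11 was called in *Ezh2* KO against WT.

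Of 35 receptor partners and scaffold genes, 23 were tested. *Homer2*, which encodes a scaffold protein of metabotropic glutamate receptors, rose in *Ezh1/2* dKO from 10.7 and 9.63 in WT to 42.9 and 36.4 (log2 difference 1.86, limma adjusted p = 0.0953). It was 3.14 and 7.74 in *Ezh2* KO. No other was called against WT, and *Homer2* and *Neto2*, an auxiliary subunit gene of kainate receptors, were lower in *Ezh2* KO than in *Ezh1/2* dKO. Of 37 genes of transmitter synthesis and transport, 19 were tested. Against WT, 1 was called higher in *Ezh2* Y726D and 0 in the other lines. *Slc6a13*, a GABA transporter gene, was lower in *Ezh2* KO than in *Ezh1/2* dKO (log2 difference −3.88 ± 0.80, limma adjusted p = 0.0444), at 1.05 and 0 against 21.4 and 18.6.

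Some markers of other cell types were called higher in the lines in which receptors were called higher, and others were not. *Dab2* and *Gata4* of the primitive endoderm list and *Krt8* and *Krt18* of the trophectoderm list were called higher in *Ezh1/2* dKO than in WT, and *Krt8* and *Krt18* in *Ezh2* Y726D as well. The trophectoderm list, with 6 of 6 genes in the table, summed to 344 and 436 in WT, 646 and 903 in *Ezh1/2* dKO and 585 and 1225 in *Ezh2* Y726D. The 8 neural markers in the table, of 10 listed, summed to 560 and 1366 in WT and 900 and 1153 in *Ezh1/2* dKO. They summed to 552 and 890 in *Ezh2* KO and 579 and 948 in *Ezh2* Y726D. The range of each mutant line overlapped that of WT, and none of these markers was called against WT. In *Ezh2* KO against *Ezh1/2* dKO, however, 2 of the 6 neural markers tested were called lower. So were 1 of 3 primitive endoderm and 1 of 2 fibroblast markers tested, and none of the other lists. *Thy1* of the fibroblast list was called higher than in WT in *Ezh1/2* dKO and *Ezh2* Y726D, while the 4 genes of that list in the table summed to 921 and 1786 in WT and 741 and 953 in *Ezh1/2* dKO. The 4 mesoderm genes in the table summed to 68.4 and 74.7 in WT, 85.7 and 126 in *Ezh1/2* dKO and 97.2 and 276 in *Ezh2* Y726D. None of them was called against WT. The part of these cell types in the receptor values was not tested.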

How the data were processed

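RNA-seq, ChIP-seq and ATAC-seq of mESC lines were used as deposited. Per the study's methods and the submitters' processing notes, the authors aligned RNA reads with TopHat and counted them on genes with HTSeq-count, whereas for ChIP-seq and ATAC-seq they used Bowtie on the mm9 genome, Picard for PCR duplicates and MACS2 for peak calling. RNA values are the authors' normalised counts (a signal, scaled by size factors with DESeq2). Dividing each library by its smallest step gave whole reads for 100.0% of values (tolerance 0.01), which were used for edgeR and DESeq2 only. The narrow peak lists give the authors' −log10 p for each peak, and every listed peak has p of 1e-10 or less. The deposited HA lists and broad lists were used for other information, the positions of their regions, and the p-value threshold of the broad lists is not given in the sources used here. The broad H3K27me1 and H3K27me2 lists lack some chromosomes, so only chromosomes present in all 4 lines were used. Deposited tables of the authors' own comparisons hold fold changes and p-values and were not used. The number of columns of per-sample values not used was 0.

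Members were rows whose symbol begins as a receptor family name. The members and gene lists were chosen with earlier results of these data known. Genes were placed on mm9 with the GENCODE annotation of that build, 16570 by symbol and 854 by synonym, and 631 were not placed. The test was limma (trend) on log2(value + 1) in 1 fit over 8 libraries, for genes whose mean normalised count reached 5, because the table holds normalised values. Calls required an adjusted p below 0.1 and a log2 difference of 1 or more in size. Tested on simulated data for *Ezh1/2* dKO against WT, over 13389 genes, 181 of 200 genes changed 4-fold were found (90.5%), with 21 false calls. The changed genes were drawn from those with a mean of at least 20 normalised counts, a level that 6 members reached. The share found therefore does not apply to the lower members. The simulated comparison without changes gave 5 false calls.

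Genes named with values are those called, the 5 largest rises and falls in each comparison with WT among the tested members, the 10 with the highest mean RNA, the 10 with the strongest WT SUZ12 peak and those with a SUZ12 or H3K27me3 peak in *Ezh1/2* dKO, with others named in counts. No label pairs replicates across lines, and the test has no replicate block. Replicates are not stated to be separate cultures, and p-values measure the spread between these libraries. No second clone of a genotype is named in the labels, so differences between clones cannot be told apart from those between genotypes. Intervals cover counting error only. Tools were Python 3.11.15 with numpy 2.4.6, pandas 2.3.3, scipy 1.17.1 and matplotlib 3.10.9, and R 4.3.3 with limma 3.58.1, edgeR 4.0.16 and DESeq2 1.42.0. RING1B, H2AK119ub, WT H3K27ac, inputs, rescue lines and proteasome inhibitor samples were not analysed here. Values of some genes are not reported here, although counts over all members include them.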

Additional observations from a re-analysis of the deposited data

Results flagged for a closer look

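Some genes differed between 2 mutant lines when these lines were compared with each other directly by limma over 8 libraries, 2 per line. The direct comparison shares its libraries with the comparisons to WT.

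Between *Ezh2* KO and *Ezh1/2* dKO, the receptor genes *Chrm3* (log2 difference −4.12), *Adra2b* (−3.44) and *Gria4* (−2.33) were lower in *Ezh2* KO. Among the accompanying lists, *Slc6a13* (−3.88), *Neto2* (−2.82), *Homer2* (−2.75) and *Adora2a* (−2.54) were lower there too.

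Between *Ezh2* Y726D and *Ezh1/2* dKO, *P2rx3* (−5.43) and *Chrm3* (−3.58) were lower in *Ezh2* Y726D.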

How the results depend on the processing

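No result changed sign while being called. Numbers of receptors called depended on the setting more than the directions did. Of the values for single receptors under the alternatives, 947 kept their side of the threshold, 84 lost a call, 12 gained one and 25 that were never called crossed 0 or moved.

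Receptors called higher in *Ezh1/2* dKO than in WT numbered 2, and 0 at an adjusted p under 0.05, 0 after quantile normalisation, 1 at a minimum mean of 20, 4 with a pseudocount of 5 and 7 at an unadjusted p under 0.05. Those higher in *Ezh2* Y726D than in WT numbered 3, and 1 by edgeR or with no filter, but 0 by DESeq2, at an adjusted p under 0.05, at a minimum of 20, after quantile normalisation, with only the libraries compared and with a replicate block. At an unadjusted p 1 was lower. In *Ezh2* KO against WT, DESeq2 called 1 lower and the unadjusted p gave 4. The 5 lower in *Ezh2* KO than in *Ezh1/2* dKO became 4 by DESeq2, 3 at an adjusted p under 0.05 and 3 with a replicate block, and 0 at a minimum of 20 and after quantile normalisation. The 1 lower in *Ezh2* Y726D than in *Ezh1/2* dKO became 0 by DESeq2, at an adjusted p under 0.05, at a minimum of 20, after quantile normalisation, with only the libraries compared and with a replicate block, and at an unadjusted p 5 were lower and 2 higher. Leaving out 1 library gave 0 to 4 higher in *Ezh1/2* dKO, 0 to 2 higher in *Ezh2* Y726D and 0 to 1 in either direction in *Ezh2* KO against WT, 0 to 5 lower in *Ezh2* KO and 0 to 2 lower in *Ezh2* Y726D against *Ezh1/2* dKO. Same-numbered libraries were not paired by any label. Their deviations from the line means correlated at 0.223 to 0.288 between mutant lines and at −0.409 to −0.065 between WT and a mutant line. Under the replicate block *Gria4* lost its call in *Ezh2* KO against *Ezh1/2* dKO, and *Adra2b* and *Chrm3* kept theirs, and a call lost in this way is not a sign of a weaker effect. Over all genes, 90.3% of the calls in *Ezh1/2* dKO against WT were higher, and 69.2% after quantile normalisation. In *Ezh2* Y726D against *Ezh1/2* dKO these shares were 11.2% and 22.9%.

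Peak counts moved with the window and the threshold. With a window of 1 kb, H3K27ac peaks lay at 4 members in *Ezh1/2* dKO, 3 in *Ezh2* KO, 4 in *Ezh2* R685C and 11 in *Ezh2* Y726D, and with 2.5 kb at 6, 4 and 6 in the first 3 of these. The most upstream start alone gave 6 in *Ezh2* R685C. At a peak p of 1e-20 or less, SUZ12 peaks lay at 0 members in *Ezh1/2* dKO, 9 in *Ezh2* KO, 17 in *Ezh2* R685C and 8 in *Ezh2* Y726D, H3K27me3 peaks in WT at 18, both WT peaks at 17, and H3K27ac peaks at 5 in *Ezh1/2* dKO, 6 in *Ezh2* R685C and 8 in *Ezh2* Y726D. With lists cut to equal length, SUZ12 peaks lay at 16 members in WT, 19 in *Ezh2* R685C and 14 in *Ezh2* Y726D, WT H3K27me3 at 24, both at 12, and H3K27ac at 6 in *Ezh2* R685C.

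Coverage by broad lists moved most. ATAC-seq coverage over 5 kb was 35.8% for both WT and *Ezh2* KO, 38.6% for *Ezh1/2* dKO and 35.3% for *Ezh2* Y726D. Taking only the blocks listed inside the regions gave 0.386%, 2.16%, 0.232% and 0.417% for ATAC-seq, 0%, 15.3%, 0% and 0% for H3K27me2 and 0.0690%, 0%, 0% and 0% for H3K27me1 in the same order. With regions above the median score, H3K27me2 was 7.37% in WT, 11.1% in *Ezh1/2* dKO and 14.9% in *Ezh2* Y726D, and H3K27me1 7.56% in *Ezh1/2* dKO and 13.3% in *Ezh2* Y726D. Over 1 kb, WT H3K27me1 was 2.78%. The causes were not tested, and the depth of the ChIP-seq and ATAC-seq libraries, which limits all peak counts, is unknown. Genes of the accompanying lists were not run under the alternatives.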
